A study of Mus musculus with 4 samples.

Results

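The cells described are intermediate progenitors of the fetal mouse cortex that express both *Eomes* and *Neurog2* and have no transcript of the cell cycle gene *Top2a*. They were chosen by 5 genes. A cell belonged when it had at least 1 unique molecular identifier (UMI) of *Eomes* and of *Neurog2*, none of *Top2a*, *Dlx1* or *Dlx2*, and a barcode that did not occur in all 4 libraries. This rule took 1046 of the 6562 cells in the table, or of the 6338 cells whose barcode was not in all 4 libraries. The libraries WT3, WT6, Het5 and Het9 gave 200, 295, 295 and 256 of these cells. Since the levels of the 5 genes chose the cells, these levels are given as a description, and so is every difference between these cells and others of the same libraries.

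The study compared the cortex of 2 wild type (*Setd5*+/+) and 2 heterozygous (*Setd5*+/-) C57BL/6J fetuses at E18.5 (an embryonic day shortly before birth). The heterozygotes carry 1 copy of the *Setd5* GFP knockout allele, which is not restricted to a cell type. Live cells were stained for CD24, a pan-neuronal surface protein, and CD45, a protein of blood and immune cells, and the CD24+ CD45- cells were loaded for droplet RNA-Seq with 3′ tags, 1 library per fetus. No other agent or allele is named for either group. The prefix of a cell name tells its library and genotype, and no prefix carries a number found in the sample titles, hence the names WT3, WT6, Het5 and Het9. Where the 3′ tags of *Setd5* lie relative to the GFP allele is not given in the sources used here.

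Intermediate progenitors arise from divisions of radial glia, the stem cells that line the cortical ventricle, and most such divisions also renew the radial glial cell. *Neurog2* encodes a basic helix-loop-helix factor that starts the neurogenic program, and *Eomes* (Tbr2) encodes the T-box factor that defines the intermediate progenitor in the subventricular zone. *Pax6* precedes and *Neurod1* and *Tbr1* follow *Eomes* in this sequence, and the daughters of these cells pass through a multipolar stage and become glutamatergic projection neurons. *Top2a*, a DNA topoisomerase of dividing cells, marks progenitors in S phase to mitosis, and *Dlx1* and *Dlx2* mark the inhibitory lineage that comes from the ventral forebrain.

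Depth was alike in the 4 libraries. The 1046 cells held 6753870 UMIs, with medians of 5964, 6307, 6555 and 6154.5 UMIs per cell in WT3, WT6, Het5 and Het9 and a median of 2385 detected genes. Mitochondrial transcripts made up a median of 3.43% to 3.69% of UMIs per library. The table holds 56 barcodes that recur under all 4 prefixes (224 cells), which were left out. A further 22 barcodes recur in 2 libraries and 3 in 3 libraries, and 3 of the cells described here (0.287%) have such a barcode. Scrublet called 6 of the 1046 cells doublets (0.574%), against 64 of all cells (0.975%), and these cells were kept. Both *Setd5*+/+ libraries expressed *Xist* and both *Setd5*+/- libraries expressed Y-linked genes, so sex and genotype cannot be told apart in any comparison between genotypes.

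Within the cells, the defining genes had a wide range. Levels are given as counts per 10000 UMIs of the cell (CP10k), and library levels are means over cells. *Eomes* had a median of 5 UMIs per cell and a highest value of 24, and 104 cells (9.94%) were included through 1 UMI. *Neurog2* had a median of 4 UMIs and a highest value of 47, and 230 cells (22.0%) had 1 UMI. *Eomes* averaged 7.96, 7.94, 8.53 and 8.30 CP10k in WT3, WT6, Het5 and Het9, and *Neurog2* averaged 8.12, 8.81, 10.5 and 9.18. These levels were 9.81-fold and 11.2-fold those of all other cells, which is what the rule selects for.

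Cells on either side of the rule are given for *Neurod1*, *Gadd45g* and *Neurod6*. The 43 cells with 1 UMI of each gene held *Neurod1*, a later factor of the same lineage, at 5.35 CP10k and *Gadd45g*, a growth arrest gene of neurogenic progenitors, at 1.63, whereas all 1046 cells averaged 3.06 and 6.18. The 397 cells with *Eomes* but no *Neurog2* UMI had 5.47 for *Neurod1* and 0.823 for *Gadd45g*. The 360 cells with *Neurog2* but no *Eomes* UMI had 2.27 and 1.55. *Neurod6*, a gene of postmitotic neurons, averaged 7.43 in all 1046 cells and was higher in the 43 cells (11.4), in those without *Neurog2* (11.7) and in those without *Eomes* (10.1). The 123 cells left out for a *Dlx1* or *Dlx2* UMI had 2.91 for *Neurod1*, 4.96 for *Gadd45g* and 7.24 for *Neurod6*.

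Stray transcripts can give UMIs in cells that do not express a gene. Among 189 cells with *Lhx6* and *Gad2*, genes of the inhibitory lineage that should lack both factors, *Eomes* was found in 3.17% (95% exact binomial interval 1.17 to 6.78), *Neurog2* in 4.23% and both in 1.59% (3 cells), at a median of 4628 UMIs. Among all cells these shares were 28.3%, 28.3% and 20.4%. The intervals here and below cover counting error only.

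The label was checked against markers of the other cells a sorted cortex could hold. *Cd24a*, which encodes the sorted surface protein, was at 6.60, 6.69, 6.37 and 6.91 CP10k in WT3, WT6, Het5 and Het9, and *Ptprc*, which encodes CD45, had a UMI in 0.0956% of the cells. The summed level of 12 interneuron genes was 0.507 to 0.744 CP10k per library, that of 6 oligodendrocyte lineage genes 0.0139 to 0.0491 and that of 6 Cajal-Retzius genes 0.267 to 0.375. The 7 immune genes summed to 0.0446 to 0.122 CP10k, with 1 of them at 0 in every cell, and the 6 endothelial and mural genes to 0.0248 to 0.0589, with 3 at 0. The oligodendrocyte genes *Olig1*, *Pdgfra* and *Sox10*, the microglial receptor gene *Csf1r* and the vessel genes *Cldn5*, *Flt1* and *Rgs5* were at 0 in all 1046 cells, which allows a share of cells with a UMI of up to 0.287%. Erythroid genes were the exception, with summed levels of 7.19, 6.11, 25.1 and 13.2 CP10k in WT3, WT6, Het5 and Het9. In Het5 1 cell carried most of this, and without it the 4 adult globins averaged 4.67 CP10k there. The median cell of all libraries held 6.58 globin CP10k, beside 6.04 to 6.85 in the 4 populations described later. All 4 adult globin genes were present and the embryonic *Hbb-y* was at 0.

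The absence of *Top2a* went together with low levels of other cycling genes. *Mki67*, the proliferation antigen, was at 0.0825, 0.124, 0.0881 and 0.0863 CP10k in WT3, WT6, Het5 and Het9, with a UMI in 4.11% of the cells, against 1.65 CP10k and 45.0% in the 111 *Eomes* *Neurog2* cells that had *Top2a*. *Cdk1*, the mitotic kinase, was at 0.0687 ± 0.021 CP10k (SD, n = 4 libraries), against 2.19 ± 0.19. *Hmgb2*, a chromatin protein that is high in dividing cells, was still found in 70.4% of the cells at 3.08 CP10k, well below the 25.6 of the *Top2a* cells. *Ube2c*, a mitotic ubiquitin enzyme, had a UMI in 14.1% of the cells, and 202 cells (19.3%) had a UMI of *Mki67*, *Cdk1* or *Ube2c*. The replication gene *Mcm2* was found in 19.9% of the cells and 6.82% of the *Neurod6* neurons described later. In those neurons, which do not divide, *Mki67*, *Cdk1* and *Ube2c* were found in 2.37%, 2.08% and 6.03%, at a median of 5498.5 UMIs. The rule gives cells without a *Top2a* UMI, and whether the other UMIs come from cycling cells was not tested.

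A mean of at least 1 CP10k and a UMI in at least 20% of the cells were reached by 1590 genes, the defining *Eomes* and *Neurog2* included. Of these, 45 were at least 2-fold higher in these cells than in all others and 23 were at or below a fold of 0.5. The leading 13 beyond the defining genes were *Rhbdl3*, *Mfap4*, *Btbd17*, *Gadd45g*, *E130114P18Rik*, *Emx1*, *Rprm*, *Celsr1*, *Dmrta2*, *Igsf8*, *Nrn1*, *Dhrs4* and *Elavl2*, with folds between 3.99 and 2.59 (of means with 0.1 CP10k added). They include transcription factors of the dorsal cortex (*Emx1* and *Dmrta2*), growth arrest genes (*Gadd45g* and *Rprm*, a p53 target that arrests the cycle in G2), an RNA-binding protein of neurons (*Elavl2*), a planar polarity cadherin (*Celsr1*) and a secreted neurite growth factor (*Nrn1*).

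The promoters of leading genes are shown because *Neurog2* and the other neurogenic helix-loop-helix factors bind E-boxes, of the letters CANNTG. RefSeq sequence of GRCm38.p6 was matched for 9 of the 13 genes. The 250 bases before the start are printed for the 4 highest in rank whose window overlaps an annotated UTR by at most 5 bases, 5′ to 3′ on the strand of the gene, with every CANNTG in capitals.
Btbd17 promoter, chr11:114795893-114796142, minus strand: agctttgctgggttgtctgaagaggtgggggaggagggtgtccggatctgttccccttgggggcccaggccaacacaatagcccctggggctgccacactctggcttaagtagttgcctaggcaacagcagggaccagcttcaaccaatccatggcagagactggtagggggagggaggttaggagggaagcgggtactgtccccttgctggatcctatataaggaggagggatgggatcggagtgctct
Gadd45g promoter, chr13:51846425-51846674, plus strand: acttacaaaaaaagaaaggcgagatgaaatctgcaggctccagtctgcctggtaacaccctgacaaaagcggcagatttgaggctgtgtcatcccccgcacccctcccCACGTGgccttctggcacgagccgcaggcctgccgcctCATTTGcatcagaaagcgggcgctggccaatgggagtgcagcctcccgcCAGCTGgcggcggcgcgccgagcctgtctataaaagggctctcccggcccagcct
Rprm promoter, chr2:54085553-54085802, minus strand: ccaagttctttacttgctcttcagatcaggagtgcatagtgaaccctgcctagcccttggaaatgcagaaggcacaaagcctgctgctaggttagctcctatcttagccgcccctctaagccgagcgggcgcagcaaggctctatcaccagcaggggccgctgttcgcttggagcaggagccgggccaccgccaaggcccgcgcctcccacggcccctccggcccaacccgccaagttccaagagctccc
Dmrta2 promoter, chr4:109977775-109978024, plus strand: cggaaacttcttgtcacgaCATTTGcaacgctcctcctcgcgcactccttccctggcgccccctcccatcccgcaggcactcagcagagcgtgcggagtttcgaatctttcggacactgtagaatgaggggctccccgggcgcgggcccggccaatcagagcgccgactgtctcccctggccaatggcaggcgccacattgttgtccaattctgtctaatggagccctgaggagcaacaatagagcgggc

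In the *Gadd45g* window CACGTG begins 142 bases before the start, while CATTTG begins 104 bases and the letters CAGCTG 55 bases before it. That of *Dmrta2* held CATTTG, 231 bases before the start, and those of *Btbd17* and *Rprm* held none. A CANNTG, which reads as CANNTG on either strand, was present in 6 of the 9 windows (66.7%) and in 17848 of the 27025 windows of all genes (66.0%), so the leading genes held it about as often as any promoter. The letters CAGATG or their reverse complement CATCTG, which are a subset of CANNTG, were in 0 of the 9 windows and in 3913 of all (14.5%). A match is a description of the letters and not a binding site.

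*Rhbdl3* (chr11:80300912-80355955 of GRCm38, plus strand), which encodes a rhomboid-like protein, was at 0.881, 1.24, 1.08 and 1.04 CP10k in WT3, WT6, Het5 and Het9 and at 0.190 in all other cells. It was found in 42.9% of the cells and 9.54% of the others. *Mfap4* (chr11:61485431-61488900, plus strand), a gene of the extracellular matrix, was at 5.73, 5.96, 5.93 and 5.14, against 1.48, and in 84.9% against 33.2% of cells. Every library lay above the others for both genes, with a lowest log2 ratio of 1.84 for *Rhbdl3* and 1.72 for *Mfap4*. *Gadd45g* (chr13:51846678-51848468, plus strand) was at 4.54, 6.68, 6.70 and 6.29 CP10k, against 1.79, and WT3 was the lowest of the 4. *Emx1*, *Elavl2* and *Igsf8* were found in 79.3%, 94.9% and 88.5% of the cells and in 33.1%, 68.4% and 51.5% of the others.

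**Figure D1:**
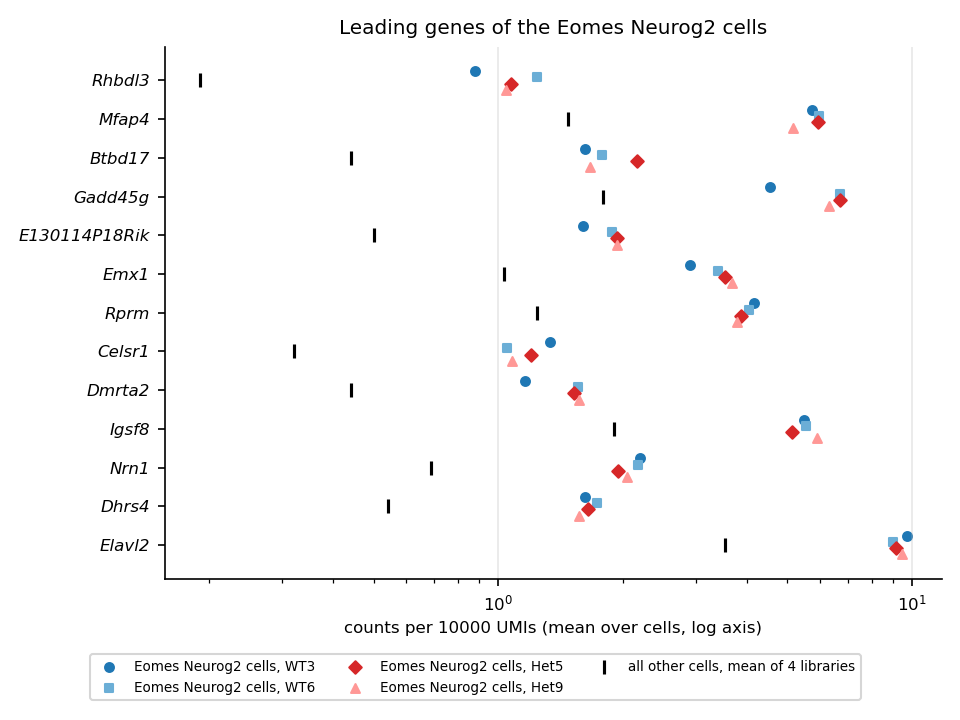
Level of the 13 leading genes in the *Eomes* *Neurog2* cells of each library (colored points) and in all other cells (black bars, mean of 4 libraries), on a log axis of counts per 10000 UMIs. In every gene the 4 points lie to the right of the bar, from *Rhbdl3* (3.99-fold) to *Elavl2* (2.59-fold).

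The cells were next set beside 4 populations of the same libraries that precede or follow them in the lineage, each chosen by its own genes and without *Dlx1* or *Dlx2*. These were 111 *Eomes* *Neurog2* cells with *Top2a*, 311 later cells with *Eomes* and *Neurod1* but no *Neurog2* or *Top2a*, 102 radial glia-like cells with *Hes5* and *Slc1a3*, and 1012 neurons with *Neurod6* and *Bcl11b* or *Fezf2*. A gene was counted when its mean log2 ratio over the libraries was at least 1 in size and the ratio had the same sign in each of the 4 libraries, among genes at 1 CP10k or more in either population. The highest and lowest genes are those of the mean ratio. No test was made, since the genes that chose the populations shape these ratios. The radial glia-like cells numbered 12 and 14 in Het9 and WT3, and the *Top2a* cells 19 to 42 per library, so that their values vary most.

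Against the cycling cells, 15 of 1831 genes (0.819%) were higher and 111 (6.06%) lower. The lowest were genes of DNA replication and mitosis. *2810417H13Rik*, which encodes a PCNA-binding protein, was at 0.308, 0.327, 0.322 and 0.105 CP10k against 8.64, 11.0, 8.36 and 10.1 in WT3, WT6, Het5 and Het9. *Birc5* (survivin), *Cdk1*, the kinetochore gene *Spc25* and the ribonucleotide reductase gene *Rrm2* followed, with log2 ratios of -3.95, -3.77, -3.76 and -3.65. The highest was *Mpped1*, at 1.85 against 0.595 CP10k, followed by *Neurod1* (3.03 against 1.07), the carboxypeptidase gene *Cpe* (2.76 against 1.02), *Hist3h2a* (2.18 against 0.850) and the calmodulin regulator *Pcp4* (1.80 against 0.744). The cyclin *Ccnd2* was not among them, at 7.20 ± 0.26 against 10.2 ± 2.2, and the G1 kinase *Cdk4* was alike at 11.4 and 11.9. *Cdkn1c*, an inhibitor of cyclin-dependent kinases, was at 3.0 ± 0.54 against 1.28 ± 0.33, and *Insm1*, a zinc finger gene of basal progenitor formation, was lower at 1.5 against 3.20.

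The later *Eomes* *Neurod1* cells were the most similar of the 4, with 12 of 1766 genes (0.68%) higher and 22 (1.25%) lower in the cells described. *Gadd45g* was the highest, at 4.54, 6.68, 6.70 and 6.29 CP10k against 0.644, 0.992, 0.715 and 1.06. The intermediate filament gene *Vim* (8.36 against 1.86), *Dbi*, which encodes an acyl-CoA-binding protein of radial glia (11.8 against 2.70), the lactate dehydrogenase gene *Ldha* (3.17 against 1.03) and *Rhbdl3* (1.06 against 0.336) followed. Lower were *Pcp4* (1.80 against 6.24), the neuronal zinc finger gene *Myt1l* (0.298 against 1.19), the glutamate receptor gene *Gria2* (1.69 against 4.82) and the semaphorin receptor genes *Nrp1* (0.867 against 2.54) and *Plxna4* (0.315 against 1.03). *Mfap4*, *Sstr2* and *Igfbpl1* were alike in both, at 5.69 and 6.22, 3.89 and 4.28, and 28.7 and 35.5 CP10k.

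Against the radial glia-like cells, 168 of 1946 genes (8.63%) were higher and 177 (9.1%) lower. *Fabp7*, the brain lipid-binding protein of radial glia, was at 4.48, 4.45, 5.80 and 4.24 CP10k against 94.1, 76.6, 130 and 123. The metallothionein gene *Mt3*, *Rgcc*, the phosphatase gene *Ptprz1* and the aldolase gene *Aldoc* were lower by 4.40, 4.05, 4.05 and 3.93 on the log2 scale. The highest were *Sstr2*, a somatostatin receptor gene, at 3.89 against 0.111 CP10k, and *Srrm4*, a splicing factor of neuronal exons, at 2.37 CP10k against 0 in the 102 cells, which allows up to 2.94% of those cells to have a UMI. *Pax6* was at 1.74 ± 0.19 and 1.89 ± 0.41 in the 2 populations, while *Sox2* was at 0.743 ± 0.044 and 3.64 ± 0.13.

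Against the neurons, 52 of 1857 genes (2.8%) were higher and 134 (7.22%) lower. The lowest were the axonal adhesion gene *Cntn2* (0.140 against 3.0 CP10k), *Myt1l* (0.298 against 3.58), the microtubule regulator *Stmn2* (0.851 against 8.12), *Nrp1* (0.867 against 7.62) and *Bhlhe22* (0.227 against 2.45). *Gadd45g* (6.05 against 0.358), *E130114P18Rik* (1.84 against 0.157), *Dbi* (11.8 against 1.49), *Vim* (8.36 against 1.15) and *Pax6* (1.74 against 0.189) were the highest. *Neurod1* did not differ in this way, at 3.03 ± 0.38 against 2.71 ± 0.15.

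Over whole lists, the 18 intermediate progenitor genes summed to 78.7 CP10k in the cells, 53.4 in the *Top2a* cells, 73.3 in the later *Eomes* cells, 49.4 in the neurons and 8.41 in the radial glia-like cells. All 18 were higher than in the *Top2a* cells, the radial glia-like cells and the rest of the libraries, 17 were higher than in the neurons and 12 than in the later cells. The list holds *Rhbdl3*, *Mfap4*, *Gadd45g*, *Celsr1*, *Nrn1* and *Elavl2*, which are among the leading genes ranked above over all other cells. For these genes a level above the rest is fixed by that ranking, so the tally is a description. The 15 radial glia genes were intermediate, at 29.6 against 248 in the radial glia-like cells, 33.0 in the *Top2a* cells, 9.41 in the later cells and 7.09 in the neurons. The 20 S-phase genes summed to 6.42 and the 20 genes of G2 and mitosis to 5.31, against 34.7 and 60.7 in the *Top2a* cells, 4.74 and 3.80 in the later cells and 4.13 and 2.12 in the neurons. The 20 genes of multipolar migration summed to 32.8, above the 22.2 of the *Top2a* cells and below the 56.3 of the later cells and the 70.8 of the neurons.

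Notch signaling, in which a ligand on a newborn neuron or progenitor keeps its neighbor undifferentiated, was represented by both ligands and receptors. The ligand genes *Dll1* and *Dll3* were at 0.359 and 0.363 CP10k, and *Dll1* was at 0.114 in the radial glia-like cells. The receptor gene *Notch1* was at 0.886 ± 0.11, between the 2.37 of the radial glia-like cells and the 0.221 of the later cells. *Mfng*, a glycosyltransferase that modifies Notch, was at 2.32 against 0.267 in the radial glia-like cells and 0.514 in the neurons. Of the effectors, *Hes1* and *Hes5* were low, at 0.0256 and 0.0906. *Nrarp* and *Hey1*, also of the Notch list, were closer to the radial glia-like cells, with log2 ratios of -1.29 and -0.867 beside -2.78 for *Hes1*. *Hes6*, a related gene that does not depend on Notch and promotes neurogenesis, was at 4.23 ± 0.19 and found in 84.0% of the cells.

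**Figure D2:**
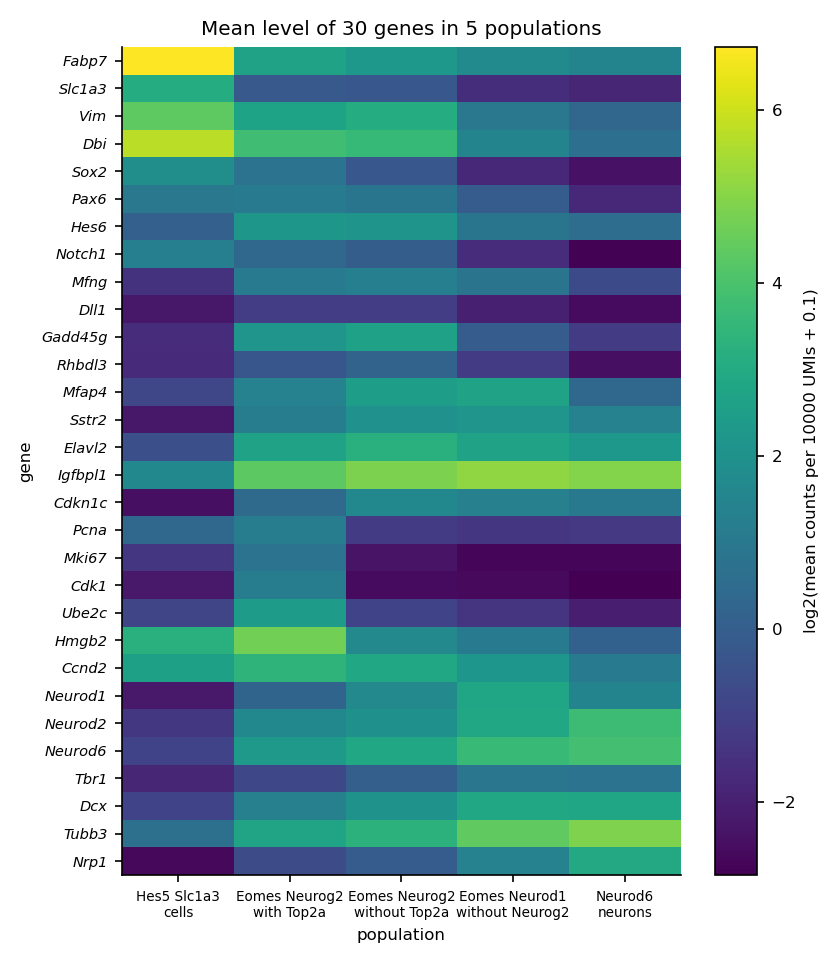
Mean level of 30 genes in 5 populations, ordered from radial glia-like cells to neurons, as color on the scale log2(CP10k + 0.1). The *Eomes* *Neurog2* cells without *Top2a* (middle column) have *Vim* at 8.36 CP10k and *Gadd45g* at 6.05, and lack the *Hmgb2* and *Ube2c* levels of the cells with *Top2a*.

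The cells were not uniform, and *Pax6* and *Neurod1*, which the rule did not use, divided them. *Pax6* without *Neurod1* was found in 322 cells (30.8%), both genes in 297 (28.4%), *Neurod1* without *Pax6* in 277 (26.5%) and neither in 150 (14.3%). The share with *Pax6* alone was 31.5%, 30.5%, 31.5% and 29.7% in WT3, WT6, Het5 and Het9. Median depth was alike in the groups with *Pax6* alone and *Neurod1* alone, at 6186.5 and 6165 UMIs. Of 1754 genes, 15 were higher by at least 1 on the log2 scale in the *Pax6* cells and 36 in the *Neurod1* cells. Genes were counted on the mean of 4 libraries, and since these cells were split by their own values the ratios are descriptions.

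Among the genes higher on the *Pax6* side, *Ddah1*, an enzyme of methylarginine breakdown, was at 1.48, 2.00, 2.81 and 1.41 CP10k in the *Pax6* cells of WT3, WT6, Het5 and Het9 and at 0.131, 0.0984, 0.102 and 0.111 in their *Neurod1* cells. *Gas1*, a growth arrest gene and co-receptor for hedgehog, was at 1.16 against 0.0604, and the serine synthesis gene *Phgdh* at 1.24 against 0.128. All 4 libraries showed these differences, as for *Vim* (13.6 against 3.87), *Gadd45g* (9.72 against 3.03), *Sox2* (1.23 against 0.359), *Dbi* (19.0 against 6.31) and *Notch1* (1.34 against 0.581). *Neurog2*, a gene of the rule, was at 13.7 against 5.46, while *Eomes* was closer at 9.43 against 7.10.

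On the *Neurod1* side *Pcp4* was at 3.74, 3.13, 3.63 and 4.08 CP10k in the *Neurod1* cells and 1.62, 0.192, 0.247 and 0.507 in the *Pax6* cells, so that WT3 stood apart within the *Pax6* cells. *Nrp1* was at 1.36 against 0.357, the netrin receptor gene *Unc5d*, which marks multipolar cells, at 1.61 against 0.519, and the Cdk5 activator gene *Cdk5r1* at 1.64 against 0.642. The cytoskeletal genes *Dcx* (5.89 against 2.22) and *Tubb3* (13.7 against 6.20) and the deep-layer factor *Tbr1* (1.20 against 0.509) were also higher in all 4 libraries. The nuclear receptor gene *Nr2f2* was at 1.71 against 0.645.

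**Figure D3:**
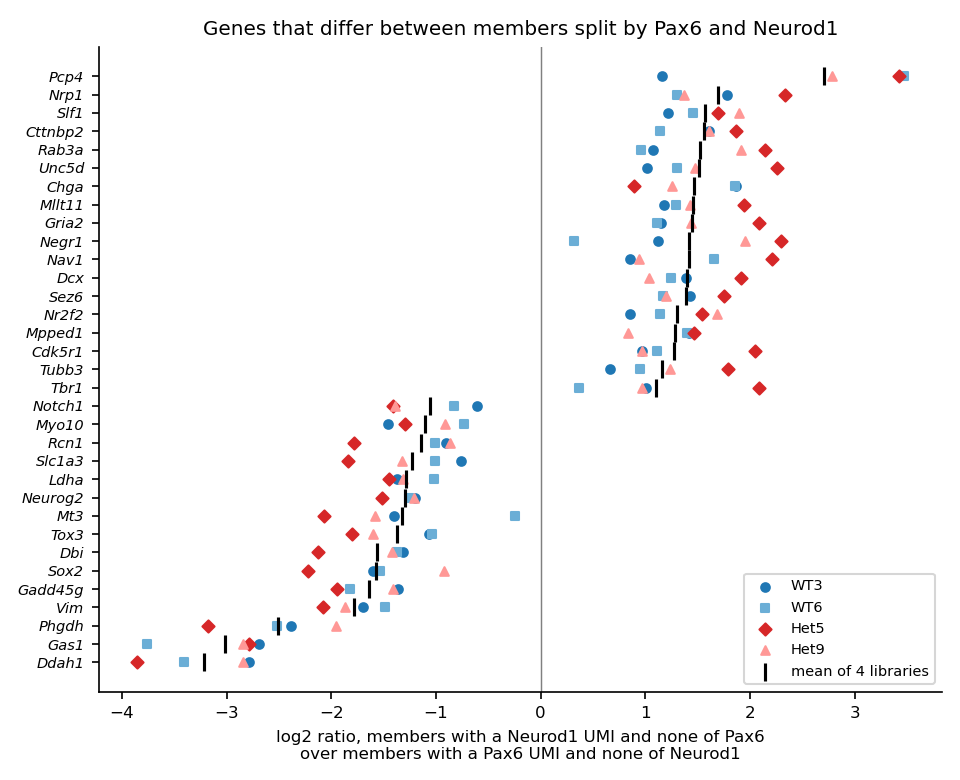
Log2 ratio of 33 genes between the *Neurod1* cells without *Pax6* and the *Pax6* cells without *Neurod1*, by library (points) and as the mean of 4 libraries (bars). *Ddah1* (1.93 against 0.110 CP10k) and *Gas1* lie farthest to the left and *Pcp4* (0.643 against 3.64) farthest to the right, and in every gene shown all points lie on 1 side of 0.

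Whether *Setd5* genotype changed the number of these cells was examined first. They made up 14.3% (95% exact binomial interval 12.5 to 16.3) and 15.5% (13.9 to 17.3) of the cells with unshared barcodes in WT3 and WT6, and 17.8% (16.0 to 19.8) and 18.4% (16.4 to 20.6) in Het5 and Het9. Both *Setd5*+/- libraries lay above both *Setd5*+/+ libraries, with means of 18.1% ± 0.421 and 14.9% ± 0.867 (SD, n = 2) and a difference of 3.20 percentage points. The two-sided exact permutation test gave p = 0.333, the smallest that 2 libraries against 2 allow. The sort for CD24 and CD45 precedes these shares and can set them. Pallial cells were taken as those with a UMI of *Eomes*, *Neurog2*, *Neurod6* or *Neurod2* and none of *Dlx1* or *Dlx2*. Genes of the rule thus helped to set this denominator. Among these pallial cells alone the shares were 25.9% and 32.7% against 30.6% and 29.5%, which overlapped, with a difference of 0.775 points (exact permutation p = 1). The cells with *Top2a* took 1.53% and 1.95% in the mean of each genotype and the later *Eomes* cells 4.82% and 5.04%, and both overlapped between genotypes.

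The shares of cells with a UMI of stage genes were compared after each cell was thinned to 3000 UMIs, which left out 12 shallower cells, 4 and 6 and 2 of them in WT6, Het5 and Het9. *Neurod1* was found in 42.0% and 43.3% against 46.0% and 44.5% of cells, a difference of 2.60 points (exact permutation p = 0.333), and in 1.0% of the thinned radial glia-like cells, which should lack it. Before thinning, these cells had median depths of 6288 and 6506 UMIs. Unthinned, these shares were 51.5% and 55.6% against 57.6% and 53.5%, and overlapped. *Pax6* was found in 34.5% and 42.3% against 37.7% and 35.0%, which overlapped. *Pcna*, the replication clamp, was found in 12.5% and 13.4% against 9.69% and 4.72% (difference -5.74 points, exact permutation p = 0.333), but in 20% and 19.0% against 19.7% and 17.6% without thinning (difference -0.872). Since the libraries overlapped without thinning, no order between genotypes was read from *Pcna*. *Sox2*, a factor of radial glia and early progenitors, was found in 16.5% and 16.8% against 20.1% and 16.9% (difference 1.83 points, exact permutation p = 0.333), and in 28.0% and 29.2% against 32.2% and 30.5% without thinning (difference 2.76, exact permutation p = 0.333). Its libraries did not overlap in either case, although WT6 and Het9 lay close together after thinning, and in the thinned neurons its share was 3.07%.

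Gene by gene, 14 of 7720 genes (0.181%) differed between genotypes in these cells at an adjusted p under 0.05, by limma on log2(CP10k + 0.1) with Benjamini-Hochberg adjustment over all genes at a mean of at least 0.1 CP10k. Of these, 8 (0.104%) were higher and 6 (0.0777%) lower in *Setd5*+/-. An unadjusted p under 0.05 was reached by 399 genes, and in 2579 (33.4%) the libraries of the genotypes did not overlap. The median log2 fold change over all genes was -0.0003. The 14 genes were 6 on the X and Y chromosomes, 4 globins, *Setd5*, *Prmt8*, *Meg3* and *Erdr1*. Fold changes on this scale understate those of low genes.

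*Setd5* (chr6:113077365-113153435, plus strand), the targeted gene, was at 1.23, 1.17, 0.454 and 0.648 CP10k in WT3, WT6, Het5 and Het9. The genotypes did not overlap, and the *Setd5*+/- mean was 45.9% of that of *Setd5*+/+. The log2 fold change was -1.01 (SE 0.137, adjusted p = 9.67e-05 by limma with Benjamini-Hochberg adjustment). The gene had a UMI in 51.5% and 50.5% against 25.4% and 30.9% of the cells.

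*Prmt8* (chr6:127689011-127769472, minus strand), an arginine methyltransferase gene of the brain on the same chromosome as *Setd5*, was at 0.752 and 0.661 CP10k against 0.262 and 0.432. The libraries did not overlap, with a log2 fold change of -0.87 (SE 0.164, adjusted p = 0.0111 by limma). Without WT3 the log2 fold change was -0.79 (adjusted p = 0.717 by limma), without WT6 -0.96 (0.116) and without Het5 -0.60 (0.487). In the radial glia-like cells it was at 0 in 3 libraries and 0.0570 in WT6. In the 3 other populations the gene was lower in level and the libraries did not overlap, at 0.245 and 0.370 against 0.0616 and 0 in the *Top2a* cells, at 0.224 and 0.228 against 0.0928 and 0.144 in the neurons and 0.221 and 0.317 against 0.129 and 0.166 in the later *Eomes* cells.

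*Meg3* (chr12:109541001-109571726, plus strand), an imprinted long noncoding RNA, was at 2.28 and 1.44 CP10k against 0.863 and 1.18. The libraries did not overlap and WT3 was the highest. The log2 fold change was -0.78 (SE 0.150, adjusted p = 0.0142 by limma), but -0.47 without WT3 (adjusted p = 0.999) and -0.58 without Het5 (0.522). In the neurons it was at 3.09 and 3.37 against 2.25 and 2.43, again with no overlap. The libraries overlapped in the other populations, at 0.532 and 1.58 against 0.319 and 0.600 in the *Top2a* cells, 0.917 and 1.58 against 0.901 and 0.972 in the later *Eomes* cells and 1.92 and 7.26 against 4.16 and 2.52 in the radial glia-like cells.

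*Erdr1*, which has no single position in the annotation and maps to the region shared by X and Y in the mouse, was at 0.895 and 2.47 CP10k against 0.745 and 0.496, so that WT6 stood apart from the other 3 libraries. Its log2 fold change was -1.17 (SE 0.239, adjusted p = 0.0296 by limma), and -0.49 without WT6 (adjusted p = 0.644). It was not called without Het5 (-1.42, adjusted p = 0.0711) or Het9 (-0.92, adjusted p = 1) either.

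The sex-linked genes followed the libraries. *Xist*, the RNA of the inactive X, was at 17.7, 19.4, 0 and 0.00704 CP10k in WT3, WT6, Het5 and Het9. The Y-linked *Ddx3y* and *Eif2s3y* were at 0 in WT3 and WT6 and at 0.674 and 0.759, and 0.721 and 0.807, in Het5 and Het9. *Kdm5d* and *Uty* followed this pattern. *Tsix* overlaps *Xist* on the other strand, and since the use of strand in counting is not given, its reads (0.738 and 0.866 against 0 and 0) cannot be told apart from those of *Xist*.

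The 4 globin genes are the oxygen carriers of red blood cells. *Hbb-bs* was at 3.89 and 3.19 CP10k against 10.6 and 7.21, *Hba-a2* at 0.760 and 0.647 against 2.52 and 2.00, *Hba-a1* at 1.62 and 1.54 against 7.64 and 2.53 and *Hbb-bt* at 0.913 and 0.718 against 4.24 and 1.43. The genotypes did not overlap, with adjusted p-values of 5.12e-08, 3.57e-09, 0.00285 and 0.00174 by limma. However, 1 cell of Het5 held 5993 globin CP10k among 14933 UMIs, with 9 UMIs of *Eomes* and 40 of the erythroid enzyme gene *Alas2*, and no other of the 1046 cells held more than 50.1. The median cell held 7.13, 5.65, 4.22 and 12.5 globin CP10k in WT3, WT6, Het5 and Het9, so that Het5 was then the lowest library. Without the 2 cells of highest globin, an alternative chosen after the data were seen, the 4 genes had log2 fold changes of 0.08 to 0.34 with adjusted p-values of 0.989 to 0.995 by limma, and 10 genes were called, all of them among the 14. The pairs *Hba-a1* and *Hba-a2*, and *Hbb-bs* and *Hbb-bt*, are near-identical copies, and how reads were split between them is uncertain.

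**Figure D4:**
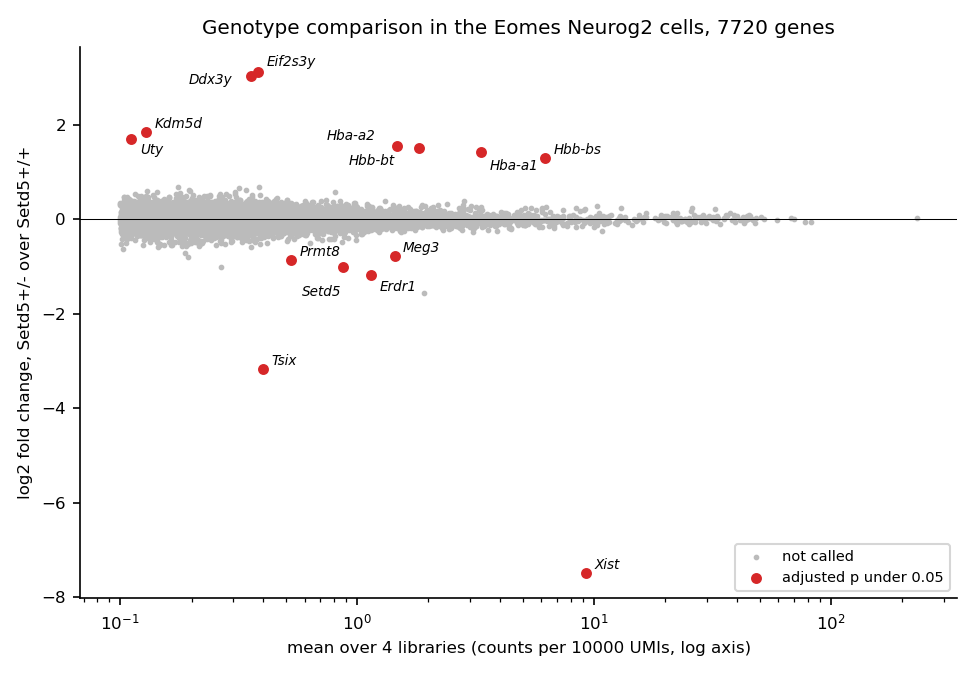
Log2 fold change of 7720 genes between genotypes in the *Eomes* *Neurog2* cells against their mean level (log axis, CP10k), with the 14 genes at an adjusted p under 0.05 in red. Apart from the X and Y genes and the globins, *Setd5* (-1.01), *Prmt8* (-0.87), *Meg3* (-0.78) and *Erdr1* (-1.17) are marked, all of them lower in *Setd5*+/-.

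**Figure D5:**
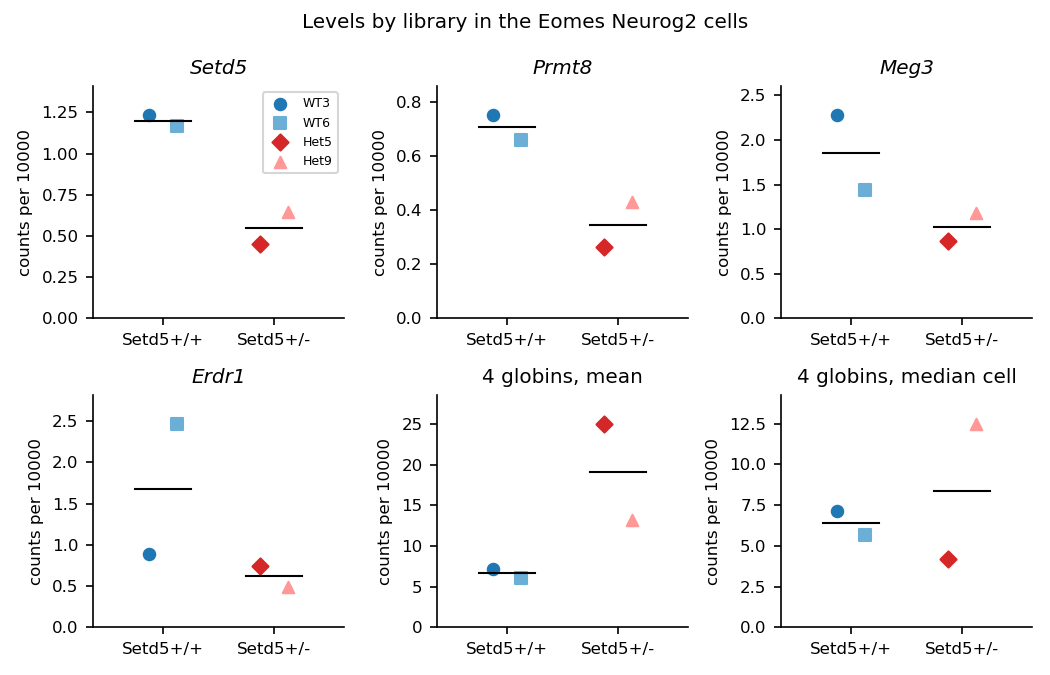
Levels by library for *Setd5*, *Prmt8*, *Meg3* and *Erdr1*, and the summed level of 4 globins as a mean over cells and in the median cell, in CP10k from 0 (black lines, mean of 2 libraries). The globin mean of Het5 (25.0) is the highest, while its median cell (4.22) is the lowest of the 4 libraries.

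None of the gene lists of the lineage held a called gene, beside 0.181% called over all genes, a share at which lists of this size hold few or none. Of their genes 3 were called in 1 of the 14 alternatives each. *Gadd45g* was called without WT6 (log2 fold change 0.51, adjusted p = 0.0226 by limma), *Vim* in the cells also at 0 for *Mki67*, *Cdk1* and *Ube2c* (0.32, adjusted p = 0.0305 by limma) and the G1 inhibitor gene *Cdkn1a* on summed UMIs (-1.19, adjusted p = 0.00364 by limma). Libraries without overlap between genotypes, given for single genes here, occurred in 33.4% of all genes. Among 18 neurogenic transcription factors, 0 were called and the median log2 fold change was 0.00, beside -0.0003 for all genes. *Neurod6*, *Hes6* and *Neurod2*, the highest of them, were within 0.06 of 0 on the log2 scale. *Neurod1* was at 2.56 and 2.91 CP10k against 3.43 and 3.20, which did not overlap, with a log2 fold change of 0.27 (adjusted p = 0.745 by limma). *Nhlh2*, a helix-loop-helix gene of newborn neurons, was at 0.516 and 0.529 against 0.644 and 0.744 (adjusted p = 0.830 by limma).

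Of the 18 intermediate progenitor genes 0 were called (median 0.00). *Igfbpl1* was at 28.4 and 28.7 against 27.2 and 30.6 CP10k, *Elavl2* at 9.71 and 8.99 against 9.15 and 9.43 and *Mfap4* at 5.73 and 5.96 against 5.93 and 5.14, all of them overlapping. Of 13 radial glia genes tested 0 were called (median 0.09). *Vim* was at 7.46 and 7.94 against 9.28 and 8.76, which did not overlap (log2 fold change 0.23, adjusted p = 0.646 by limma), and *Dbi* at 11.2 and 11.6 against 13.0 and 11.4.

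For Notch, 0 of 9 tested genes were called (median 0.09). The ligand gene *Dll1* was at 0.236 and 0.325 CP10k against 0.502 and 0.375 (log2 fold change 0.50, adjusted p = 0.780 by limma) and the receptor gene *Notch1* at 0.818 and 0.784 against 1.03 and 0.909, neither with overlap. *Mfng* and the nuclear effector gene *Rbpj* overlapped between genotypes. Of the cell cycle lists, 0 of 19 S-phase genes (median -0.05), 0 of 8 genes of G2 and mitosis (median -0.11) and 0 of 12 G1 cyclins and inhibitors (median 0.09) were called. *Ccnd2* was at 6.97 and 7.57 against 7.17 and 7.08, and *Cdkn1c* at 2.23 and 3.43 against 3.04 and 3.31.

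For migration, 0 of 16 genes were called (median 0.03). *Nrp1* had the largest fold change of the list, at 0.972 and 1.08 against 0.782 and 0.632 CP10k (log2 fold change -0.49, adjusted p = 0.318 by limma), and *Dcx* was at 4.13 and 4.01 against 4.20 and 4.16. For the layer genes of projection neurons, 0 of 14 were called (median -0.07), with *Pou3f2* at 2.57 and 2.19 against 1.99 and 2.27 and *Pou3f3* at 2.12 and 2.12 against 1.81 and 2.03.

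The genes that the study named in its cluster 3 were chosen on these samples and are no independent evidence of a direction. The study characterized that cluster by *Dlx1*, *Dlx2* and *Cdca7*, and the present rule excludes cells with *Dlx1* or *Dlx2*, so the cells compared differ. Of 14 such genes 10 were tested in the *Eomes* *Neurog2* cells, 0 were called and the median log2 fold change was -0.08. This median pools genes that the study named as upregulated with genes it named as downregulated, so it does not compare directions. *Abracl* was the closest to the threshold, at 11.9 and 11.7 CP10k against 9.73 and 9.87 (log2 fold change -0.26, SE 0.0617, adjusted p = 0.146 by limma), and it was called in the cells also at 0 for *Mki67*, *Cdk1* and *Ube2c* (-0.31, adjusted p = 0.0218 by limma). Its genotypes did not overlap. *Malat1*, *Nnat*, *Nr2f1* and *Ccnd2*, the other genes of high level, had log2 fold changes within 0.07 of 0.

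Whether the effect of genotype differed between these cells and the other populations was tested with limma on the difference of the 2 effects. No gene was called against the cells with *Top2a* (0 of 7102, 324 at an unadjusted p under 0.05), the later *Eomes* cells (0 of 7274, 356) or the radial glia-like cells (0 of 7030, 306). Against the neurons 2 of 7150 genes (0.028%) were called, *Hba-a1* and *Hbb-bt*. *Setd5* had log2 fold changes of -1.01 in the cells and -0.85 in the neurons, a difference of -0.17 (SE 0.191, adjusted p = 0.998 by limma). Its log2 fold changes were -0.89 in the *Top2a* cells, -1.05 in the later *Eomes* cells and -0.64 in the radial glia-like cells, where its levels overlapped at 1.55 and 1.11 CP10k against 0.534 and 1.20 (difference -0.38, adjusted p = 0.965 by limma). For *Prmt8* in the cells and the neurons these were -0.87 and -0.59 (difference -0.29, adjusted p = 0.967) and for *Meg3* -0.78 and -0.44 (difference -0.34, adjusted p = 0.969), so for these 3 genes no difference of the effect was detectable with 2 fetuses per genotype.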

How the data were processed

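CD24+ CD45- cells of 4 fetal cortex libraries, made with 3′ tags and UMIs, were analysed. The authors deposited 1 table in natural log units, where a count was scaled to 10000 UMIs per cell and raised by 1 before the logarithm, for 16600 genes (28 at 0 in every cell) and 6562 cells. Tools named in the submitters' processing notes are Cell Ranger 2.1 and Seurat 2.3.0, with the build mm10. For annotation, strand and cell filters no setting is given in the sources used here. Its libraries hold fewer cells each than the study states. Dividing the unlogged values by the lowest of the cell gave whole UMIs for 100% of 14848520 values above 0 (tolerance 0.01 UMI).

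Library means over cells of the counts per 10000 UMIs were compared with limma 3.58.1 (R 4.3.3) on log2(mean + 0.1), which fits log values, among genes at a mean of 0.1 or more, after Benjamini-Hochberg adjustment, at an adjusted p under 0.05. No count model was fitted. With 2 fetuses per genotype, the p-values of limma rest on the spread between these libraries. In limma the variance of each gene was drawn toward that of genes of similar level (empirical Bayes with a trend). A printed SE or p-value is therefore not that of the gene's own values alone. Where the libraries of 1 genotype lay far apart, as for *Erdr1* and *Hba-a1*, it can understate the gene's own spread. The functions were tested on simulated data. Shares were compared with two-sided exact permutation tests, and shares of cells with a UMI after thinning to 3000 UMIs (seed 1). Scrublet (scanpy 1.11.5) doublets were kept. Python 3.11.15 was used with numpy 2.4.6, scipy 1.17.1, pandas 2.3.3 and matplotlib 3.10.9. Genes are those of GENCODE M21 on GRCm38, and promoters are from RefSeq on GRCm38.p6.

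Named by rule were the genes that define the cells, *Setd5*, sex-linked genes, up to 10 called genes of largest fold change, the 15 genes of highest fold over other cells, the 5 highest and 5 lowest against each population and up to 4 genes of highest level per list. Other genes were named after their values were seen, and among them are *Prmt8*, *Meg3*, *Erdr1*, *Dll1*, *Nhlh2*, *Nrp1* by genotype and the genes of the *Pax6* and *Neurod1* split. Members and lists were chosen with earlier results of these data known. Alternatives were pseudocounts of 0.01 and 1, no filter, each library left out, stricter rules for the cells, doublets removed, thinned cells, summed UMIs and centering on the median gene.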

Additional observations from a re-analysis of the deposited data

Results flagged for a closer look

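The effect of genotype on 2 globin genes differed between the *Eomes* *Neurog2* cells and the *Neurod6* neurons, by limma on the difference of the effects with Benjamini-Hochberg adjustment over 7150 genes. For *Hba-a1* the log2 fold change was 1.43 in the *Eomes* *Neurog2* cells and -1.11 in the neurons, a difference of 2.53 (adjusted p = 0.0205 by limma). For *Hbb-bt* it was 1.5 and -0.81, a difference of 2.32 (adjusted p = 0.0205 by limma). Without the cells of each population with over 50 globin counts per 10000 UMIs, the differences were -0.03 and 0.06, each with an adjusted p of 0.998 by limma. With 2 libraries per genotype, no group held enough samples for a test of an outlying library.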

How the results depend on the processing

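The count of 14 genes by genotype ranged from 10 to 18 over 14 alternatives. It was 11, 18, 14 and 14 without WT3, WT6, Het5 and Het9, and 10 with thinned cells or without the 2 cells of highest globin. *Setd5*, *Xist*, *Tsix* and the 4 Y-linked genes were called in all 14. *Erdr1* was not called in 9 alternatives, *Hbb-bt* in 7, *Hba-a1* and *Prmt8* in 5 each, *Meg3* in 4 and *Hba-a2* and *Hbb-bs* in 2 each, among them cells also at 0 for *Mki67*, *Cdk1* and *Ube2c* for the 4 globins. The difference in the share of cells was 2.59 to 3.82 points with a library left out, and 2.33 to 3.18 with stricter rules, thinning or doublets removed. With the pallial cells as denominator it was 0.775 points, and the libraries of the genotypes overlapped. Without thinning, the difference between genotypes in the share of cells with a UMI changed sign for 6 of 12 genes, *Pax6* (-2.01 to 0.148 points), *Mki67* (0.614 to -0.0553), *Mcm2* (-1.35 to 1.65, with no overlap when thinned), *Ube2c* (-1.81 to 0.893), *Hmgb2* (-0.0836 to 3.06, with no overlap unthinned) and *Hbb-bs* (1.63 to -0.163). Of the differences between populations in the effect of genotype, a pseudocount of 1 gave 5 genes against the radial glia-like cells and 5 against the neurons, in place of 0 and 2. Leaving out globin-rich cells, chosen after the data were seen, gave 0 against the neurons. The other causes of these changes were not tested. No paired analysis was possible because the library prefixes carry no replicate number of the sample labels. Depth limits what can be said of genes near 0.1 counts per 10000 UMIs, and 2 fetuses per genotype limit every test.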

Other observations

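Some genes separated the *Setd5*+/+ libraries from each other, and likewise the *Setd5*+/- libraries, more than the genotypes. They were chosen after their values were seen. *Gm8730*, annotated on chromosome 8, was at 16.3, 3.35, 3.37 and 19.2 CP10k in WT3, WT6, Het5 and Het9 in the *Eomes* *Neurog2* cells, and at 10.5, 1.81, 2.00 and 11.6 in the neurons. It is a gene model whose reads may be shared with near copies, so its level is uncertain. The imprinted gene *Ndn* was at 0.969, 1.92, 2.03 and 1.15, and *Hopx*, a gene of outer radial glia, was at 0.195, 0.0158, 0.0315 and 0.169. In each of *Gm8730*, *Ndn* and *Hopx*, WT3 and Het9 lay on the same side of WT6 and Het5. In *Gm8797*, a gene model likewise uncertain, Het9 alone stood apart, with 2.95, 2.07, 2.44 and 0.197 in WT3, WT6, Het5 and Het9.

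Genes of the immediate early response and heat shock, which respond to handling of tissue, were at a summed level of 12.4, 13.6, 13.4 and 12.9 CP10k in WT3, WT6, Het5 and Het9. Of 6 tested, 0 were called by genotype, with a median log2 fold change of 0.00. *Fos* was at 0.241, 0.319, 0.230 and 0.173 and *Jun* at 0.425, 0.518, 0.387 and 0.333, both of them lower in both *Setd5*+/- libraries without reaching the threshold (adjusted p = 0.967 for each by limma with Benjamini-Hochberg adjustment). Genotypes without overlap were found in 33.3% of the 6 genes tested and in 33.4% of all genes tested.

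In the *Eomes* *Neurog2* cells the deep-layer factor *Fezf2* was at 1.09 ± 0.20 CP10k (SD, n = 4 libraries), close to the 0.965 ± 0.15 of the neurons that were chosen in part by it, while *Bcl11b* was at 0.531 against 4.73.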
